A study of Rattus norvegicus with 16 samples.

Results

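The potassium channel genes are the probe sets whose annotated gene has a symbol starting with Kcn and that are paired with that 1 gene only. The rule took 85 probe sets for 83 genes out of 15209 single-gene probe sets for 14497 genes. It used names and no measured value. Kcnip1 and Kcnip2 have 2 probe sets each, and the brighter one stands for the gene in summaries. The letters after Kcn sort the genes into 19 subfamilies, from Kcnj with 15 genes and Kcnk with 11 down to Kcnb, Kcnf and Kcnma with 1 each.

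Messenger RNA came from the gustatory cortex (GC), the taste area of the insula, of male Wistar Hola rats, and each rat had an array of its own. All animals, controls included, had been on water restriction for 3 days. On the test day they drank 0.1% saccharin, a taste new to them, or water, which was familiar, and were killed 1 h or 3 h later. Taste and time thus give 4 groups, with 4 rats in each. The labels give an age of 2 months and the methods an older range, and rats without a drink were not analysed here, so the level before drinking is not known. The 3 h arrays carry the lower block of array numbers and the 1 h arrays the higher block, so an effect of that numbering and an effect of time cannot be told apart. Dissected cortex holds many cell types, and in such bulk tissue fewer cells of a type and less RNA per cell cannot be told apart.

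Potassium channels let potassium leave the cell along its gradient and so set the resting voltage, shape the action potential and limit firing. Inward rectifiers (Kcnj) and two-pore channels (Kcnk) are open near rest, voltage-gated channels (Kcna to Kcnd, Kcnh, Kcnq) open on depolarization, and other families open on a rise of calcium (Kcnma, Kcnn) or sodium (Kcnt). Further Kcn genes encode silent subunits that work only inside mixed channels (Kcnf, Kcng, Kcns, Kcnv) and accessory proteins (Kcnab, Kcne, Kcnip, Kcnmb). In cortex these channels stand in neurons, glia and vessel cells alike, so a tissue level sums over cells.

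The 3 genes on which the results turn are shown with the 300 bases around their annotated starts, 250 before and 50 after, from RefSeq on the build GRCr8. They are shown because Kcnj2 and Kcnd3 were the genes called higher at 3 h and Kcnj13 was the one with the largest decrease. Capitals mark matches, on either strand, to a set of promoter motifs: the CCAAT box (CCAAT), the GC box (GGGCGG), the TATA box (TATAAA), the AP-1 site (TGANTCA), the CRE (TGACGTCA) and the EGR site (GCGNGGGCG).
Kcnj2, chr10:96559975-96560274, plus strand: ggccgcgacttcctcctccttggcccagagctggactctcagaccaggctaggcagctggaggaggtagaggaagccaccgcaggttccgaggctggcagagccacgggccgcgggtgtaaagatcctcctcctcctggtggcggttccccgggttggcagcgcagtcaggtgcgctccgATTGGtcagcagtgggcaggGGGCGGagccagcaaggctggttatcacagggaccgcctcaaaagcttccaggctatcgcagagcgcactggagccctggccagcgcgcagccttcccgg
Kcnd3, chr2:195626066-195626365, plus strand: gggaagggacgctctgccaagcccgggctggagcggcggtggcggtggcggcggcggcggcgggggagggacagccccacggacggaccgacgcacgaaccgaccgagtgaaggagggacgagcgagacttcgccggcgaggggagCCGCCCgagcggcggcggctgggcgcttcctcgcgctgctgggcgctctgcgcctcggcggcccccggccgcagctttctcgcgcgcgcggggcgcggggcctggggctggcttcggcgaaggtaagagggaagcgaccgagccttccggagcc
Kcnj13, chr9:95518937-95519236, minus strand: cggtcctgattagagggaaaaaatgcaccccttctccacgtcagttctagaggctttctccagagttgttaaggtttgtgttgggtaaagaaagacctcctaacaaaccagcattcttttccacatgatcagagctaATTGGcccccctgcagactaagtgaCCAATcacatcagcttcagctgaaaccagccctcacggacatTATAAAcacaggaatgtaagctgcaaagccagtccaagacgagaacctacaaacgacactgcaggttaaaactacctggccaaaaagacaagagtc
The Kcnj2 window held 1 GC box and 1 CCAAT box on the minus strand, and no CRE, AP-1 site or EGR site in these letters. The Kcnd3 window was richer in G and C (77.7%, against 67% for Kcnj2, 46.3% for Kcnj13 and a median of 51.7% over all promoters) and held 1 GC box. The Kcnj13 window held 2 CCAAT boxes and 1 TATA box, and the matches do not overlap each other. Among the 33469 promoters of the table, 33.1% held a GC box, 37.5% a CCAAT box, 14.2% a TATA box, 7.33% an AP-1 site, 4.98% an EGR site and 1.83% a CRE. The table has 64 promoters for 58 of the 83 potassium channel genes, and of these 50% held a GC box, 29.7% a CCAAT box, 3.12% a TATA box, 4.69% an AP-1 site, 7.81% an EGR site and 0% a CRE. These matches describe letters and were not tested as binding sites.

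Values are log2 signals. Changes over time are given here as 3 h minus 1 h, which is opposite to the direction in which the study plots them, and differences between tastes as saccharin minus water. A gene was called when its Benjamini-Hochberg adjusted p in limma, over all 15209 probe sets, was under 0.05. The study's cut-off asked for an unadjusted p no higher than 0.05 with a change of log2 0.32 or more in either direction. The median signal of an array was 5.08 to 5.16 and any pair of arrays correlated at 0.994 to 0.997. A signal floor of 3.85 was taken from 1292 probe sets of olfactory, vomeronasal and taste receptors, and 78 of the 83 genes lay above it. The other 5, Kcna10, Kcne3, Kcnj1, Kcnj15 and Kcnmb1, cannot be separated from background by this measure. Median changes over time of the markers of cortical excitatory neurons, inhibitory neurons, astrocytes, oligodendrocytes and microglia lay between log2 -0.02 and 0.05 in both tastes. Those of endothelium were 0.11 after saccharin and 0.06 after water, and those of pericytes and smooth muscle -0.09 and -0.05, with no gene called. The mean of the cortical excitatory markers ran from 10.31 to 10.41 at water 1 h and 10.40 to 10.51 at water 3 h. After saccharin it ran from 10.36 to 10.40 at 1 h and 10.40 to 10.45 at 3 h. The leptomeningeal and striatal lists are described beside the genes they touch, and were not the only lists that moved with time.

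Kcnj2 encodes Kir2.1, a strong inward rectifier that holds the resting voltage near the potassium reversal point. Its log2 signal at 1 h was 6.60, 6.41, 6.36 and 6.62 after water (C373, C374, C376, C378) and 6.44, 6.46, 6.50 and 6.47 after saccharin (C375, C377, C379, C380). At 3 h it was 6.72, 7.25, 6.96 and 6.86 after water (C365, C367, C369, C371) and 7.24, 7.24, 6.93 and 6.90 after saccharin (C366, C368, C370, C372). All 3 h arrays lay above all 1 h arrays of the same taste, and the 1 h saccharin arrays were the tightest group (SD 0.03). The rise was log2 0.61 (1.53-fold, SE 0.10) after saccharin, with an adjusted p of 0.00515. After water it was log2 0.45 (1.36-fold, SE 0.10), with an unadjusted p of 3.02e-04 and an adjusted p of 0.121, so it did not pass. The arrays did not overlap in either taste (exact permutation p = 0.0286 each, the smallest that 4 against 4 can give). That p is also the share of genes expected not to overlap by chance alone. The share over all probe sets was not counted, so non-overlap is given here and below as a description of single genes. Averaged over tastes Kcnj2 rose by log2 0.53 (1.44-fold, SE 0.07, adjusted p = 3.89e-04). Whether the rise differs between tastes was not resolved: the interaction was log2 0.16 with a 95% confidence interval from -0.13 to 0.46 (adjusted p = 1.00 in limma). The water change depended on single arrays. Without water 3 h C365, the lowest of its group, it was log2 0.52 and was called (adjusted p = 0.0444). Without water 3 h C367, the highest, it was log2 0.35 with an adjusted p of 0.292.

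**Figure D1:**
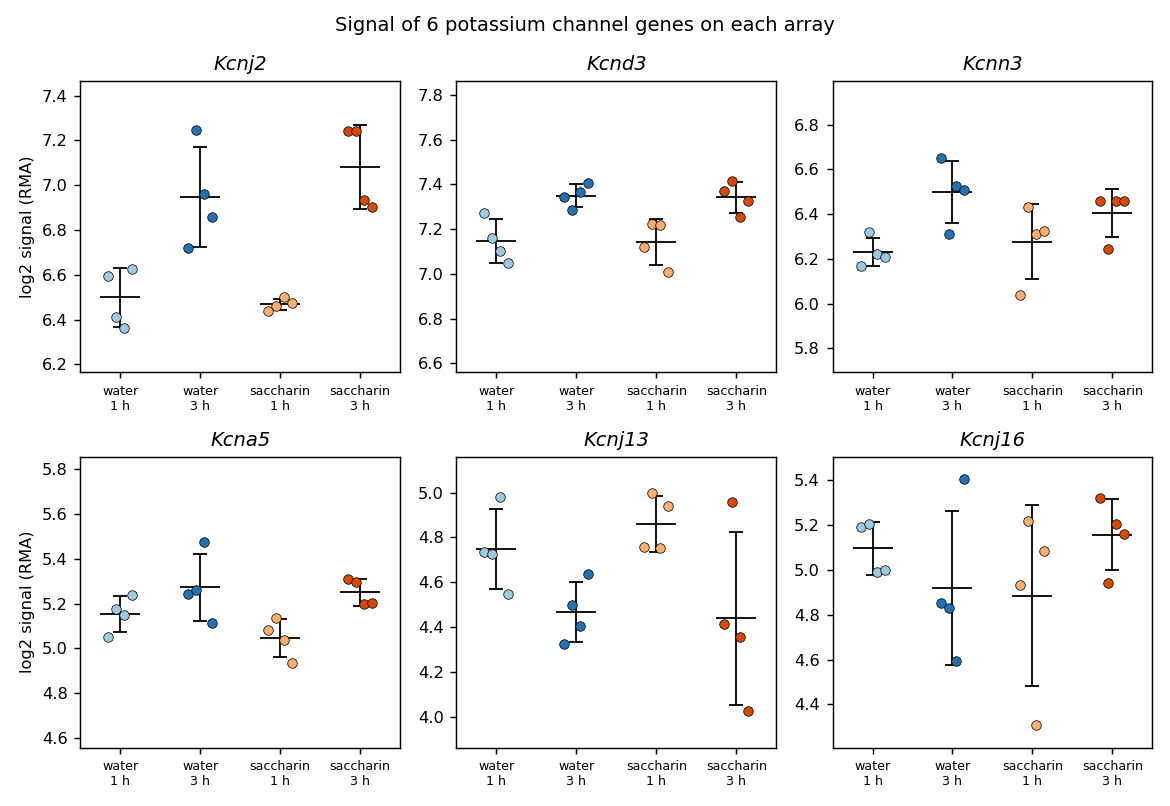
Log2 signal of 6 potassium channel genes on each of the 16 arrays, by group. Points are arrays, the bar is the group mean and the error bar the SD (n = 4), and every panel spans the same log2 range. The 3 h arrays of Kcnj2 and Kcnd3 lie above the 1 h arrays in both tastes, and in Kcnj13 the saccharin 3 h array C368 (4.96) lies with the 1 h arrays.

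Kcnj2 was 1 of 85 probe sets called over time after saccharin (1.18%), where 0.348% of all probe sets were called, and 0 of 85 were called after water, where 0.125% of all were. At the study's cut-off Kcnj2 and Kcnj13 passed after saccharin (2 of 85, 2.35%, against 0.75% of all) and Kcnj2 alone after water (1 of 85, 1.18%, against 0.572% of all). For the mean of both tastes, where 8 arrays stand against 8, Kcnj2 and Kcnd3 were called (2 of 85, 2.35%, against 1.01% of all). The counts at the cut-off rested on single arrays: after saccharin 4 passed without saccharin 1 h C377, and after water 2 passed without C367 or without C378 and 3 without C371.

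The nearest relatives of Kcnj2 had small changes. Kcnj12 (Kir2.2), Kcnj4 (Kir2.3) and Kcnj14 (Kir2.4) encode the other strong inward rectifiers, which can join Kir2.1 in mixed channels. Kcnj12 was higher at 3 h by log2 0.12 after water (adjusted p = 0.612) and by 0.07 after saccharin (adjusted p = 0.783). Kcnj4 differed by 0.01 after saccharin and 0.08 after water, and Kcnj14 by 0.17 and -0.05, with a lowest adjusted p of 0.669 among these 4 changes. Kcnj12 arrays after water did not overlap between the times, from 6.69 to 6.82 at 1 h and from 6.83 to 6.94 at 3 h, while those of Kcnj4 and Kcnj14 did in both tastes.

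Kcnj16 (Kir5.1), which in glia and kidney joins Kir4.1, is the next protein-coding gene to Kcnj2 on chromosome 10 in RefSeq. Its signal was 5.19, 5.21, 4.99 and 4.999 at water 1 h, 4.85, 4.83, 4.59 and 5.40 at water 3 h, 4.93, 5.22, 4.31 and 5.09 at saccharin 1 h, and 5.32, 4.94, 5.21 and 5.16 at saccharin 3 h. The groups overlap throughout, with SDs of 0.12 to 0.40. Its change was log2 0.27 after saccharin (adjusted p = 0.746) and -0.18 after water (adjusted p = 0.889), and the interaction was 0.45 with an interval from -0.05 to 0.95 (adjusted p = 1.00), so the neighbor of Kcnj2 showed no rise that passed a test. Kcnj10 (Kir4.1), the main potassium conductance of astrocytes, was at -0.02 after saccharin and -0.06 after water, beside astrocyte markers with medians of 0.02 and -0.02.

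The G protein-gated subunits (Kcnj3, Kcnj5, Kcnj6, Kcnj9), which open on release of inhibitory transmitters acting on coupled receptors, included no call. Kcnj3 (GIRK1) was lower by 0.13 after saccharin and 0.10 after water, and the mean of both tastes, log2 -0.12, had an unadjusted p of 0.0245 and an adjusted p of 0.314. Kcnj6 (GIRK2) differed by 0.05 and 0.08, and its water arrays met without overlapping (7.48 to 7.55 at 1 h and 7.55 to 7.66 at 3 h). Kcnj9 (GIRK3) and Kcnj5 (GIRK4) stayed within 0.08 of 0. Of the ATP-sensitive pore subunits, which sense the energy state of the cell, Kcnj11 (Kir6.2) was higher by 0.10 and 0.13 and Kcnj8 (Kir6.1), found in mural cells of vessels, lower by 0.11 and 0.07, and neither passed.

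Kcnj13 encodes Kir7.1, a weak rectifier of epithelia such as the choroid plexus and the retinal pigment epithelium. Its signal at 1 h was 4.74, 4.72, 4.98 and 4.55 after water and 4.76, 4.996, 4.75 and 4.94 after saccharin. At 3 h it was 4.32, 4.50, 4.40 and 4.64 after water and 4.41, 4.96, 4.36 and 4.02 after saccharin. Both tastes overlapped in 1 array, water 3 h C371 and saccharin 3 h C368. The change was log2 -0.42 after saccharin (SE 0.14, adjusted p = 0.358), -0.28 after water (adjusted p = 0.711) and -0.35 for both (adjusted p = 0.116). Without saccharin 3 h C368 it was -0.60 after saccharin (adjusted p = 0.0179) and -0.44 for both tastes (adjusted p = 0.00570). Without saccharin 3 h C372, the lowest array, it was -0.28 after saccharin (adjusted p = 0.629) and -0.28 for both tastes (adjusted p = 0.175). Both the size of the change and its call thus depend on single arrays.

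The markers of leptomeninges and fibroblasts, the cells of the membranes over the cortex, moved with time in the same direction as Kcnj13. Of 10 listed, 9 were measured and 8 lay above the floor, and all 9 were lower at 3 h in both tastes, with medians of log2 -0.42 after saccharin and -0.22 after water. None was called, and 9 after saccharin and 3 after water had an unadjusted p under 0.05. The mean of the 9 ranged from 6.46 to 6.77 at water 1 h, 6.17 to 6.59 at water 3 h, 6.50 to 6.81 at saccharin 1 h and 5.91 to 6.60 at saccharin 3 h. Saccharin 3 h C372 was lowest in both the marker mean (5.91) and Kcnj13 (4.02), and C368 was highest of its group in both (6.60 and 4.96). Over the 8 arrays at 3 h Kcnj13 followed the marker mean with Pearson's r = 0.91 (exact permutation p = 0.00136) and Spearman's rho = 0.93 (exact p = 0.00223), with adjusted p of 0.0109 and 0.0179 over the 8 relations computed. Without the 2 arrays farthest from the median it was r = 0.92. The relation was chosen after the data were seen, and the adjustment does not cover that choice, so these p-values are descriptions. Over the 8 arrays at 1 h r was 0.52 (exact p = 0.162) and rho 0.62 (exact p = 0.115). With the marker mean as a covariate in the fit, the change of Kcnj13 for both tastes was log2 -0.07 with an adjusted p of 0.861. Of the choroid plexus markers 7 of 9 measured lay below the floor, among them Ttr, Folr1 and Cldn2, so their changes over time cannot be read.

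Kcnj2 moved opposite to the leptomeningeal markers, and with them as a covariate its rise was log2 0.74 after saccharin (adjusted p = 0.0129) and 0.63 for both tastes (adjusted p = 0.00205). Within the arrays of 1 h and of 3 h its correlation with the marker mean was r = -0.12 (exact p = 0.749) and 0.41 (exact p = 0.306).

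**Figure D2:**
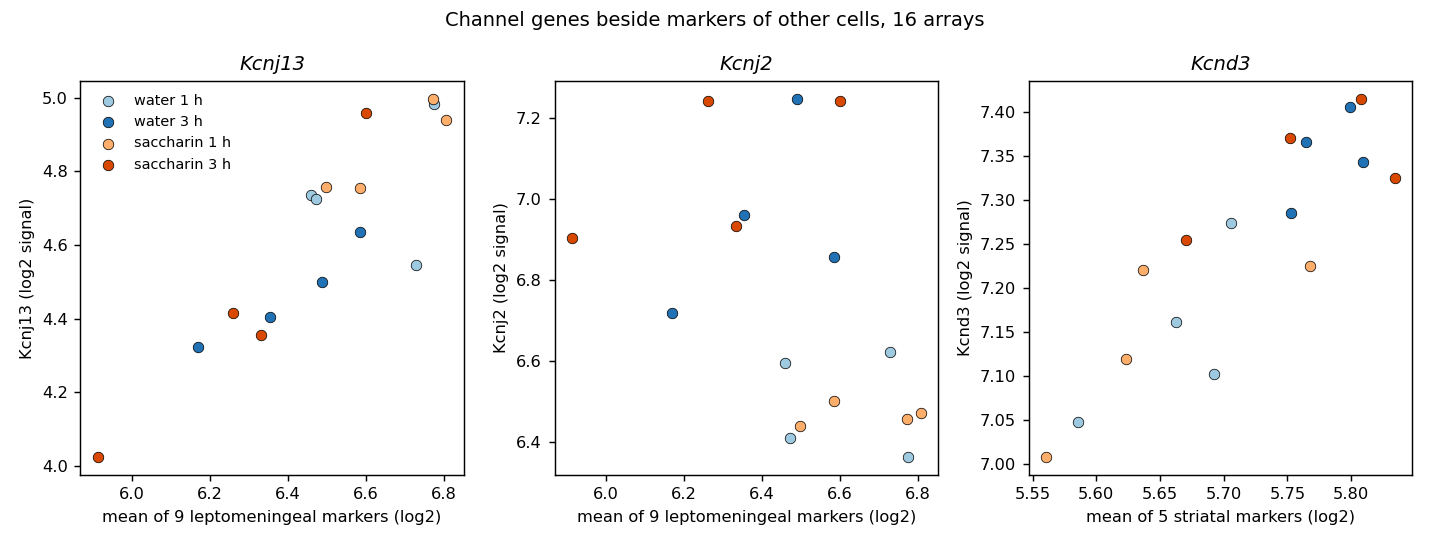
Log2 signal of Kcnj13 and Kcnj2 against the mean of 9 leptomeningeal markers, and of Kcnd3 against the mean of 5 striatal markers, 1 point per array. Within the 3 h arrays Kcnj13 followed the leptomeningeal mean with r = 0.91, and within the 1 h arrays r was 0.52. Kcnj2 is higher at 3 h, and the leptomeningeal mean is lower at 3 h on average. Marker level and time are thus partly confounded in both panels, and no cause was tested. Kcnd3 and the striatal mean are both higher at 3 h on average, so their relation over all arrays includes the time difference. Within the 1 h arrays Kcnd3 followed the striatal mean with r = 0.76 (exact permutation p = 0.0292, adjusted 0.117). Within the 3 h arrays r was 0.62 (exact p = 0.0964) and rho 0.29 (exact p = 0.501).

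**Figure D3:**
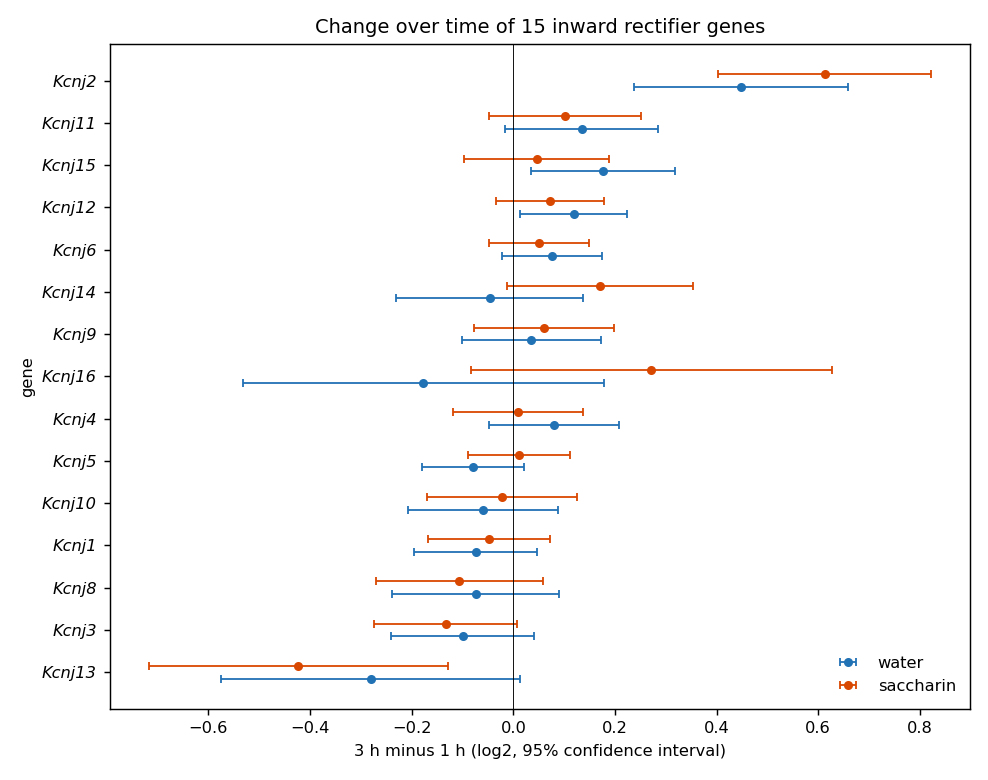
Change over time (3 h minus 1 h, log2) of the 15 inward rectifier genes after water and after saccharin, with 95% confidence intervals from the limma fit, ordered by the mean of both tastes. Kcnj2 is the gene with both intervals above 0 (0.24 to 0.66 after water and 0.40 to 0.82 after saccharin), and Kcnj13 lies at the other end.

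Across the 15 Kcnj genes the median change for both tastes was log2 0.05, with 9 higher and 6 lower and a range from -0.35 to 0.53. Over all 83 genes the median was 0.01, with 47 higher and 36 lower, and over all probe sets it was 1.15e-05 with 50% higher. By taste the Kcnj median had opposite signs, at 0.05 after saccharin (10 higher, 5 lower) and -0.05 after water (7 higher, 8 lower). Genes of the family lay on both sides of 0, and the 2 extremes of all 83 genes both lay among the inward rectifiers.

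Kcnd3 encodes Kv4.3, a subunit of the fast-inactivating current that delays firing and damps signals in dendrites. At 1 h its signal was 7.27, 7.16, 7.10 and 7.05 after water and 7.12, 7.22, 7.22 and 7.01 after saccharin. At 3 h it was 7.34, 7.28, 7.37 and 7.41 after water and 7.37, 7.42, 7.25 and 7.33 after saccharin. The 3 h arrays lay above the 1 h arrays in both tastes, by a narrow margin (7.27 against 7.28 after water, 7.22 against 7.25 after saccharin). The change was log2 0.20 in each taste (1.15-fold, SE 0.06), with unadjusted p of 0.00313 after water and 0.00382 after saccharin and adjusted p of 0.359 and 0.284. For both tastes together Kcnd3 rose by log2 0.20 (SE 0.04, adjusted p = 0.0241). This call lies near the threshold: it was lost in 6 of 16 fits that left out 1 array (C366, C369, C371, C375, C376 or C380), with adjusted p up to 0.0588.

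Markers of striatal neurons, a neighbor of the insular cortex below the white matter, were also higher at 3 h. Of 6 listed, 5 were measured and above the floor, 4 were positive after saccharin and 5 after water, with medians of log2 0.11 and 0.13 and no call, and the list mean ran from 5.59 to 5.71 at water 1 h, 5.75 to 5.81 at water 3 h, 5.56 to 5.77 at saccharin 1 h and 5.67 to 5.83 at saccharin 3 h. Within the 1 h arrays Kcnd3 followed that mean with r = 0.76 (exact permutation p = 0.0292, adjusted 0.117) and rho = 0.81 (exact p = 0.0218, adjusted 0.0871), and r = 0.62 without the 2 farthest arrays. Within the 3 h arrays r was 0.62 (exact p = 0.0964) and rho 0.29 (exact p = 0.501). With the striatal mean as a covariate, chosen after the data were seen, the change of Kcnd3 was log2 0.09 with an adjusted p of 0.709, and with the leptomeningeal mean 0.19 with an adjusted p of 0.283. Under the striatal covariate Kcnj2 kept its call (log2 0.66 after saccharin, adjusted p = 0.0481, and 0.58 for both, adjusted p = 0.0272).

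None of the partners of Kcnd3 was called. Kcnd2 (Kv4.2), the subunit it joins in many cortical neurons, was at log2 -0.10 after saccharin (adjusted p = 0.692) and -0.005 after water, and Kcnd1 at 0.003 and 0.01. The calcium-binding proteins that bring Kv4 channels to the membrane, Kcnip1 to Kcnip4, ranged from -0.06 to 0.02 after saccharin, and after water from -0.05 to 0.004, by their brighter probe sets. The dimmer probe sets of Kcnip1 and Kcnip2 gave -0.04 and -0.07 after saccharin and -0.10 and -0.02 after water, with no call at either. Dpp6 and Dpp10, the other partners of Kv4, were at 0.04 and -0.08 for both tastes (adjusted p = 0.745 and 0.483).

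Among the other voltage-gated genes no change was called. Kcna5 (Kv1.5), a delayed rectifier also known from microglia and vessels, was 5.08, 5.13, 5.04 and 4.94 at saccharin 1 h and 5.31, 5.30, 5.20 and 5.20 at saccharin 3 h, with no overlap, and differed by log2 0.20 (adjusted p = 0.358). After water its arrays overlapped (5.05 to 5.24 and 5.12 to 5.48) with a difference of 0.12. Kcna1, Kcna2 and Kcna4, the subunits of axonal and presynaptic Kv1 channels, lay at 0.02, -0.03 and 0.05 after saccharin and 0.01, -0.04 and 0.09 after water, and the accessory Kcnab1 and Kcnab2 at 0.10 and -0.03, and 0.07 and -0.03. Kcna4 arrays after water did not overlap (6.54 to 6.58 at 1 h and 6.61 to 6.71 at 3 h). Kcnb2 (Kv2.2) was at 0.02 in both tastes. Kcnc1 and Kcnc2, which carry the Kv3 current of fast-spiking interneurons, were at -0.04 and -0.04 after saccharin and -0.05 and 0.05 after water. Kcnq3 and Kcnq5, which carry the M current that acetylcholine closes, were at -0.03 and -0.08, and 0.02 and -0.06.

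The Kcnh family, relatives of the ether-a-go-go channel, was mixed, with 4 genes higher and 4 lower for both tastes. Kcnh5 was 9.01, 8.87, 9.11 and 9.11 at saccharin 1 h and 8.79, 8.89, 8.88 and 8.71 at saccharin 3 h, a difference of log2 -0.21 (adjusted p = 0.447). Kcnh8 differed by -0.27 after saccharin (adjusted p = 0.570), with saccharin 1 h C380 at 5.07 against 4.49 to 4.63 on the other 3. Both were near 0 after water (-0.03 and -0.07). Kcnh6 went the other way, at 0.13 and 0.11, with an adjusted p of 0.167 for both tastes, and Kcnh7 lay at -0.09 and -0.05.

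Silent subunits form no channel alone and change the gating of Kv2 channels they join. Kcnf1 was 8.84, 8.81, 8.84 and 8.82 at water 1 h and 9.10, 9.07, 8.98 and 8.90 at water 3 h, with no overlap and a difference of log2 0.18 (adjusted p = 0.483). After saccharin it was 0.11 higher with overlapping arrays. Kcng1 differed by 0.15 after saccharin (adjusted p = 0.589), without overlap, and by 0.11 after water. The 3 Kcns genes were all positive for both tastes (0.05 to 0.13) and the 2 Kcnv genes were both negative (-0.03 and -0.02), and none of them passed. The small accessory subunits of the Kcne family ranged from -0.20 to 0.05 after saccharin, and after water from -0.10 to 0.10.

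Calcium-activated channels turn calcium entry into hyperpolarization. Kcnn3 (SK3), a small-conductance channel, was 6.17, 6.32, 6.22 and 6.21 at water 1 h and 6.65, 6.31, 6.52 and 6.51 at water 3 h, which overlap through C374 and C367. The difference was log2 0.27 (adjusted p = 0.370), and after saccharin it was 0.13 (adjusted p = 0.754), with C368 at 6.24 and the other 3 arrays at 6.46. For both tastes Kcnn3 was higher by log2 0.20 (adjusted p = 0.128), a change of the same size as that of Kcnd3. Kcnn1 (SK1) was 0.13 higher after saccharin (adjusted p = 0.597) and -0.01 after water. Kcnma1 (BK), the large-conductance pore, lay at 0.02 and 0.003 and its neuronal partner Kcnmb4 at 0.04 and 0.05. The sodium-activated Kcnt1 and Kcnt2 lay at -0.11 and -0.04 after saccharin and -0.02 and 0.001 after water.

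Two-pore channels give the background leak. Kcnk9 (TASK-3) was higher by log2 0.11 in both tastes (adjusted p = 0.603 and 0.656), with 0.11 for both (adjusted p = 0.175). Kcnk10 (TREK-2) differed by 0.20 after saccharin (adjusted p = 0.583) and -0.01 after water, with saccharin 1 h C380 (5.22) below the other arrays of its group (5.57 to 5.66). Kcnk1, Kcnk2 and Kcnk3 ranged from -0.06 to 0.04 after saccharin, and after water from -0.05 to 0.08. Kcnk1 arrays after water ran from 9.68 to 9.79 at 1 h and from 9.79 to 9.84 at 3 h and met without overlapping.

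**Figure D4:**
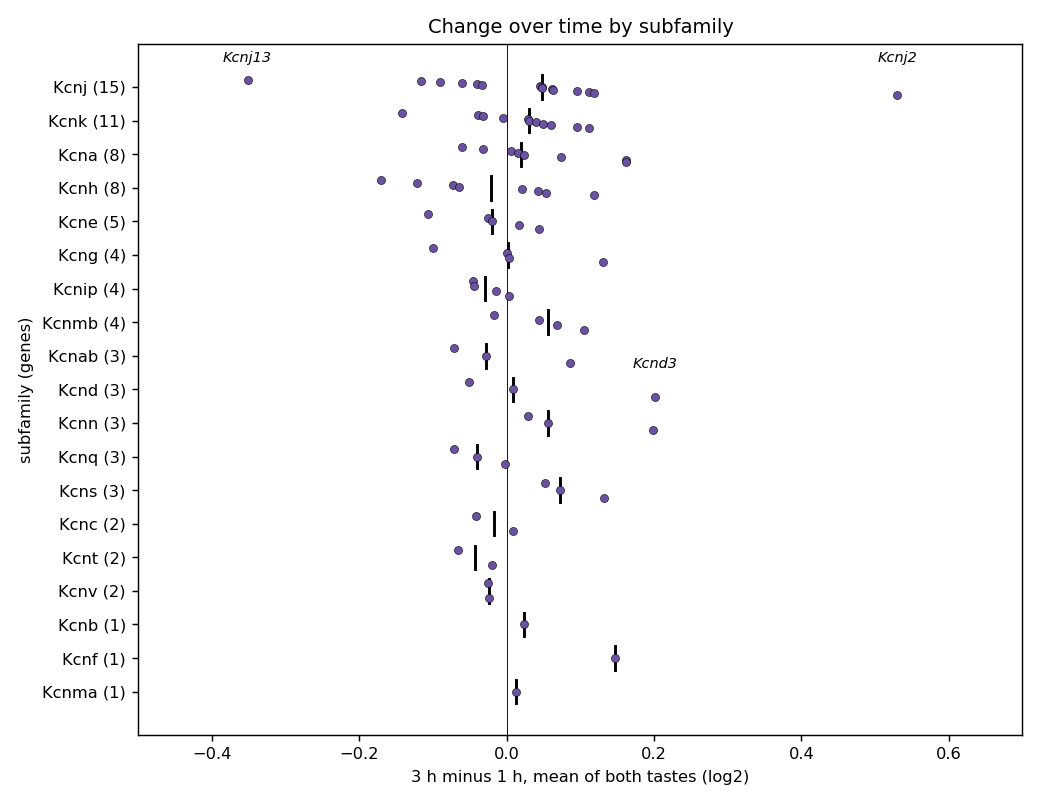
Change over time for the mean of both tastes (3 h minus 1 h, log2) of the 83 genes by subfamily, with the number of genes in brackets. Points are genes and black bars subfamily medians, which lie between -0.04 and 0.15. Kcnj2 and Kcnj13 lie at the upper and lower ends. Kcnd3 is also labelled, and its change (log2 0.201) was close in size to that of Kcnn3 (0.198), which was not called.

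Most of the genes changed little. After saccharin 75 of 83 (90.4%) and after water 79 (95.2%) lay within log2 0.2 of no change, against 96.7% and 97% of all probe sets, and the median size of a change was 0.05 and 0.06 against 0.05 in both for all. The median SD within a group was 0.10 for these genes and 0.09 over all probe sets. At an unadjusted p under 0.05, 8 of 85 probe sets were higher at 3 h after saccharin (9.41%, against 3.43% of all) and 3 lower (3.53%, against 4.56%). After water 7 were higher (8.24%, against 3.56%) and 0 lower (against 3.67%). For both tastes 13 were higher (15.3%, against 5.77%) and 3 lower (3.53%, against 6.25%). All but Kcnj2 and Kcnd3 fell short of the adjusted threshold, and Kcnj2, Kcnd3 and Kcnk9 were among the higher ones in both tastes.

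The changes in the 2 tastes, which share no array, were positively correlated. Over the 83 genes Pearson's r between the change after saccharin and the change after water was 0.66, or 0.55 without Kcnj2, and 60 of 83 had the same sign (72.3%). Over all probe sets r was 0.44 and 61% had the same sign. Genes are not independent replicates and the tastes share the times and the array numbering, so these values are descriptions.

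**Figure D5:**
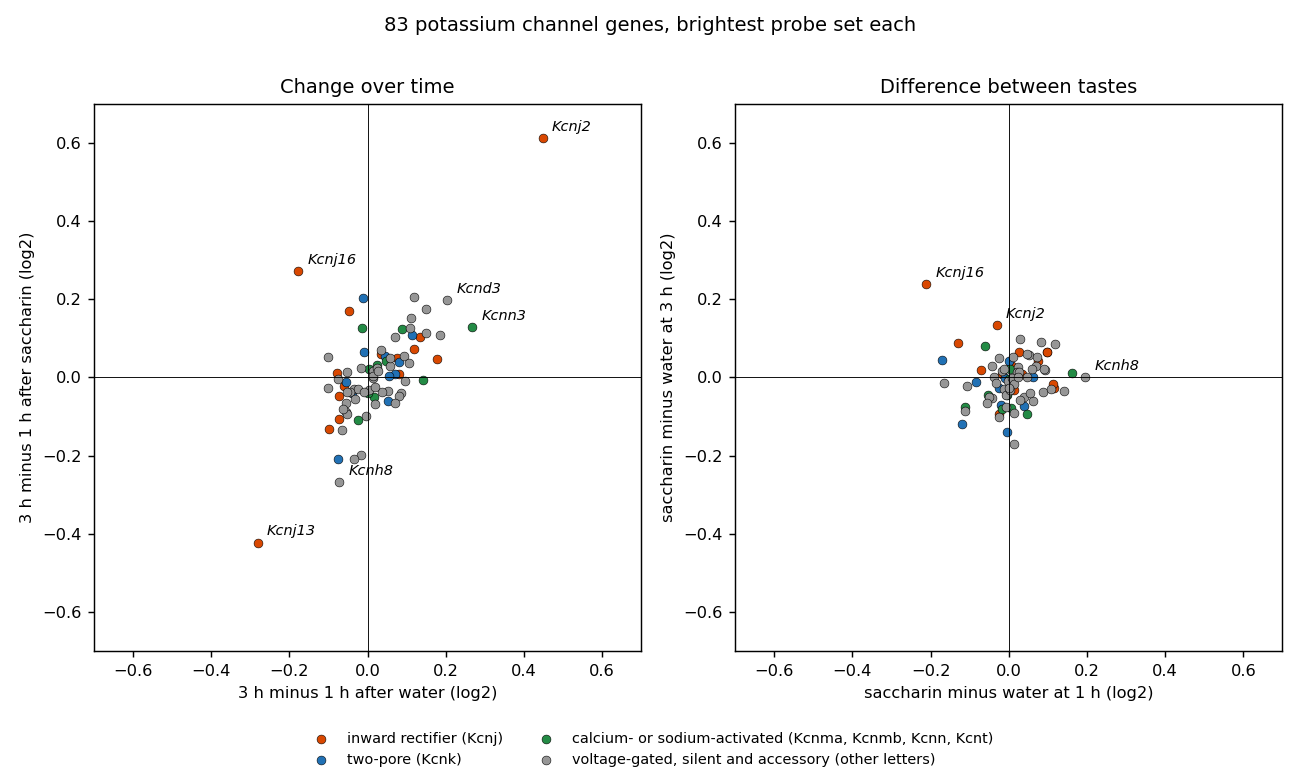
Change over time after saccharin against that after water (left) and difference between tastes at 3 h against that at 1 h (right), in log2, for the 83 genes. Points are genes, coloured by class. Kcnj2 and Kcnj13 stand at opposite ends of the left panel, and on the right the genes gather around 0.

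The comparison of tastes sets saccharin, which was new, against water, which was familiar. Novelty and the kind of taste therefore cannot be told apart in these arrays. None of the 85 probe sets was called at 1 h or at 3 h, and 0% of all probe sets were. At the study's cut-off 0 of 85 passed at 1 h (0.0855% of all) and 0 at 3 h (0.138% of all). At an unadjusted p under 0.05, 1 of 85 passed at 1 h (1.18%, against 3.06% of all) and 0 at 3 h (against 3.37%). The 1 was Kcne2, an accessory subunit of epithelial and cardiac channels, at 4.94, 4.86, 4.78 and 5.15 after water and 4.74, 4.81, 4.83 and 4.69 after saccharin, which overlap. It differed by log2 -0.17 at 1 h (adjusted p = 1.00) and -0.01 at 3 h. Kcnj2 differed by -0.03 at 1 h (95% interval from -0.24 to 0.18) and 0.13 at 3 h (from -0.08 to 0.34), intervals that leave room for a difference of either sign. The interaction of taste and time called 0 of 85, with 0% of all, and 0 of 85 had an unadjusted p under 0.05 (2.96% of all). Between the difference at 1 h and that at 3 h r was 0.01 over the 83 genes, and 51 had the same sign (61.4%, against 50.8% of all). Taste differences lay within log2 0.2 for 82 of 83 genes at each time, the exceptions being Kcnj16 at both.

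Proteins that work with these channels but carry other names were described from a fixed list. Of 22 partners 19 were measured and 0 were called over time in either taste or for both, with medians of log2 -0.003 after saccharin and 0.05 after water. Of all probe sets 0.348% were called after saccharin, 0.125% after water and 1.01% for both, so a list this short could well hold no call. They include Hcn2, a pacemaker channel (-0.02 and -0.01), and Dlg4, the scaffold PSD-95 (0.07 and 0.04). Of 17 pumps and cotransporters that move potassium 13 were measured, and 1 was called for both tastes, where 1.01% of all probe sets were. Atp1b3, a beta subunit of the sodium pump, fell by 0.18 on the log2 scale for both tastes (adjusted p = 0.0277), at -0.11 after saccharin and -0.24 after water. Fxyd6 and Fxyd7, small regulators of the pump, were at 0.22 and -0.16 after saccharin and 0.19 and -0.17 after water, and for both tastes at 0.21 (adjusted p = 0.177) and -0.17 (adjusted p = 0.327), so neither passed. Slc12a5 (KCC2), the neuronal chloride extruder, lay at -0.09 and 0.02, and Atp1b1 and Atp1b2 at -0.02 and 0.03 after saccharin and -0.01 and -0.04 after water.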

How the data were processed

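Gustatory cortex mRNA of 16 rats was measured on Affymetrix rat gene arrays, 4 per group, 1 array per rat. The authors used the affy package, with quantile normalization over all chips and RMA summaries per probe set, and the deposited values are log2 signals, used here unchanged. Its version is not given in the sources. Quantile normalization gives all arrays 1 distribution, so a change shared by all genes would not be seen. Genes were named by the array annotation. Of 28826 probe sets, 15209 had 1 gene, 306 several and 13311 no entry there, and 1 Kcn probe set with several genes was left out. All 85 probe sets matched RefSeq by gene ID. All 16 sample columns were used.

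Group means were fitted in limma 3.58.1 (R 4.3.3) over 16 arrays, with 6 contrasts, two-sided, adjusted by Benjamini-Hochberg. Single genes were also tested by exact permutation (70 splits of 4 against 4, smallest p 0.0286). Replicates are separate rats by the methods. The number of arrays limits the precision. On simulated data for saccharin, 3 h against 1 h, over 15209 probe sets the fit recovered 89 of 100 changes of log2 0.5. It recovered 99 of 100 of log2 1, with 14 false calls. The planted changes outnumbered the 53 probe sets called in the data, which makes the adjusted threshold easier to pass. Smaller changes, such as the log2 0.20 of Kcnd3, were not simulated, so this recovery does not bear on them. Named genes were Kcnj2, genes past either threshold, the 3 smallest p in each direction and contrast, and 44 listed symbols, 48 measured genes in all. The other genes are named where counts or ranges needed them and were chosen after their values were seen. The members and lists were chosen with earlier results of these data known. Marker relations within each time were chosen after seeing the data, and their adjusted p does not cover that choice. Alternatives covered the probe sets tested, dim filters, centring, repeated normalization, the prior, array weights, fits on 8 arrays, marker covariates and leaving out each array. Figures used matplotlib.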

Additional observations from a re-analysis of the deposited data

Results flagged for a closer look

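Of 192 groups of 4 arrays of the 48 named genes, 9 held 1 array far from the other 3 by Dixon's ratio (4.69 per 100), and chance alone gives about 1 in 20. Array C377 of saccharin 1 h was the low one in 4 of them. There Kcnh7 was 8.79 against 9.05 to 9.10 on the others, Kcnq3 was 9.05 against 9.21 to 9.22, Kcnq5 was 8.41 against 8.59 to 8.62 and Kcnd2 was 9.11 against 9.15 to 9.16. These 4 genes are neuronal channel subunits.

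In saccharin 3 h, Kcnd2 was 8.89 on C372 against 9.08 to 9.12, and Kcnn3 was 6.24 on C368 while its other 3 arrays were all at 6.46. In water 3 h, C367 held Kcnh5 at 9.03 against 8.78 to 8.81 and Kcnk3 at 5.40 against 5.52 to 5.55, and C371 held Kcnip4 at 7.57 against 7.35 to 7.38. The genes called over time, Kcnj2 and Kcnd3, held no such array, and no difference between the tastes in a change over time passed its test.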

How the results depend on the processing

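No paired analysis was possible because the groups share no replicate numbers. For 36 changes of named genes, 947 comparisons with alternatives gave 934 on the same side of the threshold with the same direction, 9 below the threshold (all Kcnd3 for both tastes), 3 newly past it and 1 reversed, Kcnh5 for both tastes with the striatal covariate (log2 0.035, adjusted p = 0.944). Potassium channel calls for both tastes were 2 and became 1 (Kcnj2) with all probe sets tested, with the leptomeningeal covariate and with the striatal covariate, which was chosen after seeing the data. Leaving out each array in turn gave 1 to 3 calls for both tastes (without saccharin 3 h C366 or saccharin 1 h C375 or C380, and without water 3 h C369 or C371 or water 1 h C376, Kcnd3 was lost), 1 to 2 after saccharin (2 without C368, with Kcnj13) and 0 to 1 after water (1 without C365). At the study's cut-off the counts were 2 to 4 after saccharin (4 without C377, with Kcnh8 and Kcnj16), 1 to 3 after water (2 without C367 or C378, 3 without C371) and 0 to 1 for taste at 3 h (1, Kcnj16, without C371). With a mean log2 of at least 5 the count after saccharin was 1, as Kcnj13 is dimmer than that. Kcnj13 also fell short of log2 0.32 after saccharin with the leptomeningeal covariate (-0.06) and without C372 (-0.28). An unchanged count can therefore hide a change of members. The other counts and the calls of Kcnj2 after saccharin and for both tastes did not change under these alternatives. The causes of these moves were not tested, and a wider set of probe sets raises the number of tests. Signals near the floor limit what can be said of Kcna10, Kcne3, Kcnj1, Kcnj15 and Kcnmb1.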
